A study of Mus musculus with 60 samples.

Results

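At the lowest dose given, 125 µg/kg, TCDD changed the liver transcriptome of 2 lines of transgenic mice to very different extents, and the results below describe the difference between those changes, line INS minus line DEL. The difference is (INS with TCDD minus INS with corn oil) minus (DEL with TCDD minus DEL with corn oil), so a value below 0 means that a gene rose less, or fell more, in INS than in DEL. Its members are all 21115 features of the deposited expression table, each standing for 1 gene, measured on 18 of the 60 arrays of the series. Those 18 arrays are 5 DEL mice on corn oil, 4 DEL mice on TCDD, 5 INS mice on corn oil and 4 INS mice on TCDD.

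Each array held the liver RNA of 1 male C57BL/6J mouse of 12 to 15 weeks, taken 96 hours after a single gavage of corn oil alone or of 125 µg/kg TCDD (2,3,7,8-tetrachlorodibenzo-p-dioxin) in corn oil. The genotype labels are DEL and INS, and all animals carried a transgene. The third line of the series, rWT, and the higher doses enter only where they are named. The labels do not say what the transgene is, which promoter drives it, whether a line goes back to 1 founder or whether the mouse receptor remains.

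The aryl hydrocarbon receptor (AHR) is a transcription factor that waits in the cytoplasm until a dioxin or another flat aromatic ligand binds it. It then enters the nucleus, pairs with ARNT and binds short DNA elements near target genes, of which the drug-metabolising cytochromes Cyp1a1, Cyp1a2 and Cyp1b1 are the classical ones in liver. As background from rats, the dioxin-resistant Han/Wistar strain carries an altered AHR transactivation domain, from which insertion and deletion forms of the protein arise, and the labels do not say whether the lines' names stand for these forms.

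The 4 groups read as liver throughout: the mean level of Alb, the main plasma protein made by hepatocytes, was 13.58 in DEL corn oil and 13.59 in INS corn oil, and 13.63 and 13.59 after TCDD. All levels and effects are on the log2 scale. Array means were 6.23 to 6.28 for DEL arrays and 5.66 to 5.74 for INS arrays, and INS read lower by a median of 0.54 over all features both with corn oil and with TCDD. A constant offset cancels in the difference of effects and a difference in scale does not, so levels are read within a line and lines are compared by their effects. Array maxima lay at 13.6 to 13.8. The number of arrays limits the precision, and 80.4% of features had a 95% interval of the difference that lay within 2-fold either way.

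3 arrays stood apart within their groups. Replicate 1 of DEL TCDD showed 51.4% of the average DEL response of the other 3, which themselves lay at 97.5% to 122%. Replicate 3 of INS corn oil moved 14.03% of the way along the DEL response without TCDD, against -4.96% to -1.70% in the other 4. Replicate 4 of INS TCDD moved 6.65% of the way, against 19.1% to 28.9% in the other 3 treated INS mice. These shares project each array's deviation from its line's corn oil mean on the DEL effect over all features, and they are descriptions without a test.

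TCDD at 125 µg/kg changed 4164 features in DEL and 27 in INS, and the effect differed between the lines in 1224. As a share of all features, 19.7% were called in DEL, 0.128% in INS and 5.8% in the difference, each by limma's moderated test at a Benjamini-Hochberg adjusted p under 0.05. The DEL calls were 2264 rises (10.7%) and 1900 falls (9%), and the INS calls were 25 rises (0.118%) and 2 falls (0.00947%). At an unadjusted p under 0.05 the counts were 6480 in DEL, 1489 in INS and 3704 for the difference. The difference lay above 0 in 593 features (2.81%) and below 0 in 631 (2.99%). Every one of the 631 had a DEL effect above 0, and every one of the 593 had a DEL effect below 0. The DEL effect enters the difference with a minus sign, so features chosen by their difference lean towards these signs. The DEL effect was the larger in size in 1214 of the 1224. No feature was called in both lines in opposite directions. Of the 1224, 1203 were called in DEL alone, 9 in both lines, 12 in neither and 0 in INS alone.

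**Figure D1:**
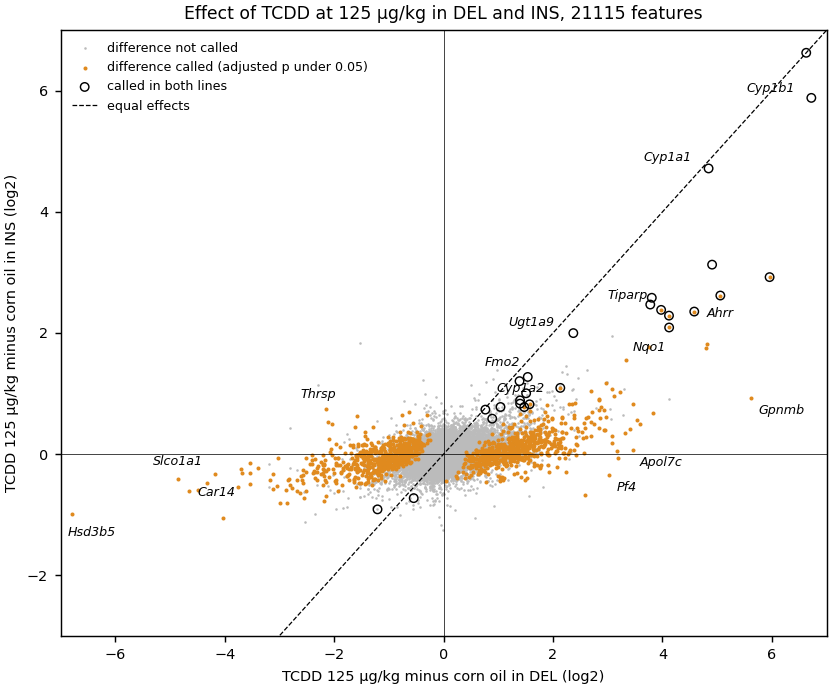
Effect of TCDD at 125 µg/kg in DEL (x axis, log2) and in INS (y axis, log2), 1 point per feature, with called differences in orange and features called in both lines ringed in black. The orange points spread along the x axis and stay near 0 on the y axis, while Cyp1a1, Cyp1b1 and Cyp1a2 lie on or near the dashed line of equal effects.

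The count of 1224 depended on single arrays and on the scaling. It was 2119 without replicate 1 of DEL TCDD, 794 without its replicate 3, 656 without its replicate 4 and 743 without replicate 4 of INS TCDD. Without replicate 3 of INS corn oil it was 960. Centring each array on its median moved the median DEL effect over all features from -0.04 to -0.25 and the median difference to 0.17, and the split became 939 above 0 and 487 below 0. In that setting DEL had 1556 rises and 5903 falls.

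INS livers moved in the direction of DEL for most DEL-responsive genes, but by little. Among the 2264 features that rose in DEL, the median effect was 0.83 in DEL and 0.14 in INS. In 1750 of them (77.3%) the INS effect pointed the same way, and in 304 (13.4%) it reached at least 50% of the DEL effect. Among the 1900 features that fell in DEL, the medians were -0.66 and -0.11, with 1427 (75.1%) pointing the same way and 163 (8.58%) reaching at least 50%. The INS effect was as large as the DEL effect in 14 of the rises and 6 of the falls. These features were chosen by their DEL call, which favours large DEL effects. The medians, shares and counts therefore lean towards a smaller INS response.

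Most classical AHR targets that rose in DEL had no called difference, and the same held for all features that rose in DEL. Of the 16 measured members of the AHR target list, 11 rose and 1 fell in DEL, 6 rose in INS, and 4 had a called difference, all below 0 (3 to 6 over 26 alternatives in processing or arrays left out). That is 25% of the list, beside 5.8% of all features. Of the 2264 features that rose in DEL, 624 (27.6%) had a called difference. The median effect over the list was 1.18 in DEL and 0.61 in INS. The 6 that rose in both lines were Cyp1a1, Cyp1a2, Cyp1b1, Ahrr, Tiparp and Selenbp1.

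Cyp1a1, the hydroxylase that is the standard readout of AHR activity, rose strongly in both lines, and within 2-fold of each other in the values as deposited. The DEL corn oil arrays read 8.53, 8.63, 7.53, 8.21 and 7.76 and the DEL TCDD arrays 13.004, 12.99, 12.84 and 13.06. The INS corn oil arrays read 7.59, 7.07, 6.88, 7.94 and 7.93 and the INS TCDD arrays 11.70, 12.46, 12.32 and 12.32. Every treated mouse lay above every corn oil mouse of its line, by a wide margin. The rise was 4.84 ± 0.24 (SE) in DEL and 4.72 ± 0.24 in INS, and the difference was -0.13 with a 95% interval of -0.85 to 0.60. After quantile normalization of the arrays the difference was -0.55, and after mapping the lines' value profiles onto their mean it was -0.59. In neither of these settings was the interval within 2-fold, so likeness depended on how the lines were scaled. The treated DEL arrays lay within 1 log2 unit of the array maxima.

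Cyp1a2, which is already abundant in untreated liver, rose by a small amount in both lines. Its DEL arrays read 12.87, 12.69, 12.58, 12.82 and 12.83 with corn oil and 13.47, 13.57, 13.53 and 13.51 with TCDD. Its INS arrays read 12.55, 12.39, 12.27, 12.64 and 12.65, and then 13.26, 13.34, 13.21 and 13.13. Neither line's groups overlapped. The rise was 0.76 ± 0.09 in DEL and 0.73 ± 0.09 in INS, with a difference of -0.03 (95% interval -0.31 to 0.25), and the interval stayed within 2-fold in all 26 alternatives. The DEL corn oil mean of 12.76 was already less than 1 log2 unit below the maxima of the DEL TCDD arrays, at 13.64 to 13.69, so a rise much above that of Cyp1a2 could not have been read in DEL and its closeness between the lines says little.

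Cyp1b1, the third cytochrome of the family, had the largest rise of any named gene in either line. The DEL arrays went from 6.68, 5.60, 5.53, 4.93 and 5.60 to 12.28, 12.55, 12.32 and 12.41. The INS arrays went from 4.19, 4.30, 4.52, 4.11 and 4.20 to 9.16, 11.17, 9.95 and 10.31. The treated INS mice were more scattered than the treated DEL mice, and both lines' groups were far apart. The rises of 6.72 ± 0.32 and 5.88 ± 0.32 differed by -0.84 (95% interval -1.77 to 0.10, adjusted p = 0.36), so neither a difference nor equality within 2-fold was shown.

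Ahrr, the repressor that competes with AHR for ARNT, separated the lines. The DEL arrays read 3.85, 4.39, 4.30, 4.21 and 4.33 with corn oil and 8.95, 8.84, 8.34 and 9.05 with TCDD. The INS arrays read 4.02, 3.88, 4.14, 4.21 and 3.95, and then 5.26, 7.45, 6.51 and 6.36. The groups of each line did not overlap, and replicate 1 of INS TCDD was the lowest treated array. The rise was 4.58 ± 0.28 in DEL and 2.35 ± 0.28 in INS, and the difference of -2.23 (95% interval -3.06 to -1.40, adjusted p = 0.0035) was called in all 26 alternatives.

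Tiparp, a poly(ADP-ribose) polymerase that is induced by AHR and marks it for degradation, rose by 3.98 ± 0.29 in DEL and 2.38 ± 0.29 in INS. The DEL arrays went from 6.68, 6.79, 7.02, 6.69 and 6.93 to 11.09, 10.90, 10.32 and 10.88, and the INS arrays from 6.10, 6.08, 6.95, 6.63 and 6.33 to 7.69, 9.71, 9.25 and 8.56. Here too the groups of each line were apart and replicate 1 was the lowest treated INS array. The difference was -1.59 (adjusted p = 0.030). The call was lost without DEL corn oil replicate 4, DEL TCDD replicate 2 or 4, INS corn oil replicate 3 or INS TCDD replicate 4, with an adjusted p of up to 0.069.

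Nqo1, a quinone reductase that both AHR and the oxidative-stress factor NRF2 induce, rose by 3.33 ± 0.32 in DEL. In INS its change of 1.55 ± 0.32 did not pass the test (adjusted p = 0.073), although the INS TCDD arrays at 8.07, 8.64, 8.82 and 8.49 all lay above the corn oil arrays at 6.62, 6.46, 7.93, 6.80 and 6.99. The difference was -1.78 (adjusted p = 0.025). Pmm1, a phosphomannomutase, was the fourth, with 2.29 in DEL, 0.82 in INS and a difference of -1.48 (adjusted p = 0.0011). Aldh3a1, an aldehyde dehydrogenase that AHR induces in other tissues, was not called in either line, with effects of -0.28 and 0.06.

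**Figure D2:**
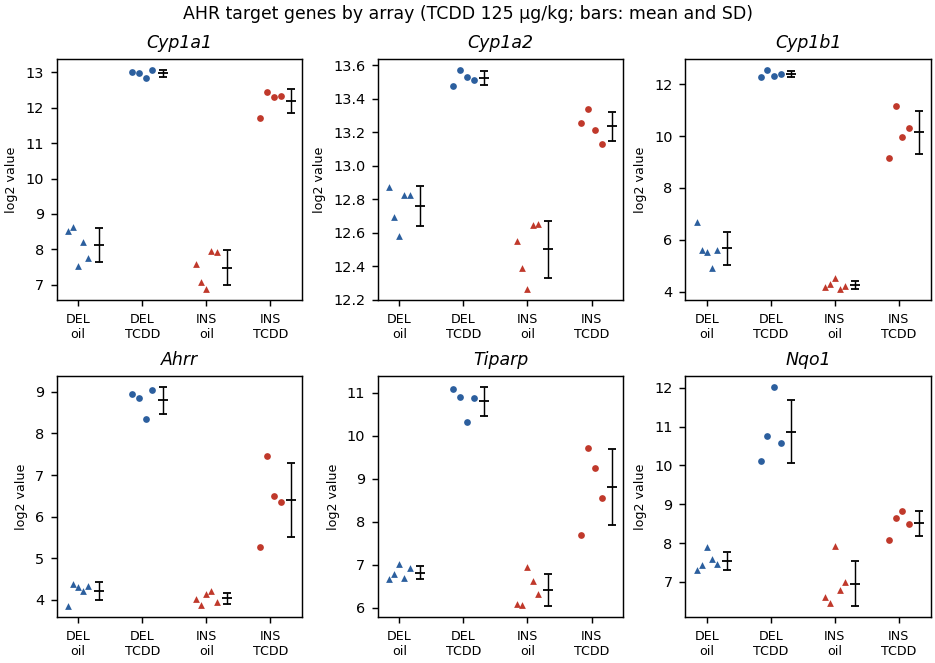
Log2 values of 6 AHR target genes on each array, triangles for corn oil and circles for TCDD at 125 µg/kg, DEL in blue and INS in red, with the mean and SD of each group as black bars and a separate y axis per gene. The step from corn oil to TCDD within a line is what the lines are compared by, and for Ahrr it is 4.58 in DEL and 2.35 in INS.

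The promoters of 2 targets called in both lines without a called difference, Cyp1a1 and Cyp1b1, and of 2 with one, Tiparp and Ahrr, are printed to show the AHR element's core in each. The capitals mark the core GCGTG or, on the other strand, CACGC, in windows of 250 bases before to 50 after the gene start, from RefSeq on GRCm38.p6, written 5′ to 3′ along the gene.
Cyp1a1, chr9:57697363-57697662, plus strand: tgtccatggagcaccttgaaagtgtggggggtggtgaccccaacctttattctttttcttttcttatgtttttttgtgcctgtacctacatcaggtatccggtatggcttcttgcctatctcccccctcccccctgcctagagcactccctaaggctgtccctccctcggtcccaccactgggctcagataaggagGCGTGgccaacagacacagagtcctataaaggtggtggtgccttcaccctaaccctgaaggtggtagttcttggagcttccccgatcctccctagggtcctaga
Cyp1b1, chr17:79715012-79715311, minus strand: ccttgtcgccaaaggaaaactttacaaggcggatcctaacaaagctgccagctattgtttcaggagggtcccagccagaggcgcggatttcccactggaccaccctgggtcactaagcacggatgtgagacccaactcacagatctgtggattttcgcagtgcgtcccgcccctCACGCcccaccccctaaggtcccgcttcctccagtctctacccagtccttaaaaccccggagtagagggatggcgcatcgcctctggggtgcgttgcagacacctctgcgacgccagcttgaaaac
Tiparp, chr3:65528197-65528496, plus strand: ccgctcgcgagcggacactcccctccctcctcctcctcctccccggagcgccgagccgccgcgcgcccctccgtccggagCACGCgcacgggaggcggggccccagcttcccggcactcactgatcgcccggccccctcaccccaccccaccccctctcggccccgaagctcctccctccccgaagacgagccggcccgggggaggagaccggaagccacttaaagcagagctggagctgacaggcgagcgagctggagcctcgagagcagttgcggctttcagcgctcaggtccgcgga
Ahrr, chr13:74292282-74292581, minus strand: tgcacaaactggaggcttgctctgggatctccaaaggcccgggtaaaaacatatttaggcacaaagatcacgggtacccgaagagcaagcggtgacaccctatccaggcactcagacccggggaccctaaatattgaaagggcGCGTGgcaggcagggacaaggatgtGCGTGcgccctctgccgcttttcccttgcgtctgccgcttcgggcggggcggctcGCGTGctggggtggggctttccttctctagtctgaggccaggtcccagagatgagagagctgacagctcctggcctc
Cyp1a1, Cyp1b1 and Tiparp held 1 core each and Ahrr held 3. The core was in 32.4% of all 32851 windows and in the windows of 43.9% of the measured genes with an entry. It was in 51.5% of genes that rose and 47.8% of those that fell in DEL, in 44.5% of those with a difference below 0 and 42.9% of those with one above 0, and in 7 of the 18 genes with an entry that rose in INS. A match describes these letters only.

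Of the 10 measured members of the AHR pathway list, which holds the receptor, its partners, chaperones and coactivators, 0 were called in DEL, in INS or in the difference. With 10 members, beside shares of 5.8% of all features for the difference and 0.128% in INS, a count of 0 says little about the list. Ptges3, a co-chaperone of HSP90, had the largest difference of them, 0.65 (adjusted p = 0.066), and was called in 1 of the 26 alternatives. Ahr itself had effects of 0.27 in DEL and -0.09 in INS, with a difference of -0.35 (95% interval -0.77 to 0.06). The labels do not say whether this feature reads the transgene. Arnt had effects of 0.05 and 0.18, with a difference of 0.13 (95% interval -0.16 to 0.42).

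The genes called in both lines numbered 26, all in the same direction. 10 of them were alike, meaning that the 95% interval of the difference lay within 2-fold, 9 had a called difference and 7 had neither. Because a call in INS was one of the criteria, genes with a large INS effect were favoured here, and the counts describe the shared part of the response. Besides Cyp1a1 and Cyp1a2, the alike genes were Fmo2, a flavin monooxygenase (1.54 in DEL, 1.27 in INS), Selenbp1, a selenium-binding oxidase (1.51 and 1.004), Slc3a2, the heavy chain of amino acid exchangers (1.40 and 0.89), Dclk3, a kinase (1.39 and 1.20), Exoc3, an exocyst subunit (1.04 and 0.78), Mtbp, an MDM2-binding protein (0.89 and 0.58), Smagp, an adhesion glycoprotein that fell (-1.21 and -0.91), and 1 predicted gene that fell.

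Cyp1a1 stayed alike in 24 of the 26 alternatives. Cyp1a2 did in all 26. Its closeness to the array maxima limits the rise that could be read, though not the call in INS that alike also requires. Slc3a2 and Smagp stayed alike in 23, Selenbp1 in 22, Mtbp in 14, Exoc3 in 10, Dclk3 in 9 and Fmo2 in 5. Alike does not mean equal. The 95% intervals of the difference of Selenbp1 (-0.91 to -0.10) and Slc3a2 (-0.90 to -0.12) lay wholly below 0. For each of these genes the difference was called in 3 of the 26 alternatives. The count of alike genes was 5 to 13 when single arrays were left out, and 4 after quantile normalization. A bound of 1.5-fold in place of 2-fold left 2.

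Some genes called in both lines were chosen for mention after their values were seen, since few genes were called in INS. Nptx1, a neuronal pentraxin, went from 4.66, 4.70, 4.49, 4.90 and 4.66 in the INS corn oil arrays to 6.45, 9.42, 7.41 and 7.97 with TCDD. Its rises of 3.13 in INS and 4.91 in DEL had a difference of -1.78 (95% interval -3.01 to -0.55). That difference was not called (adjusted p = 0.088), and it was called in 4 of the 26 alternatives. Ugt1a9, a glucuronosyltransferase, rose by 2.37 in DEL and 1.998 in INS (95% interval of the difference -1.09 to 0.35). Tuba8, a tubulin (3.78 and 2.47), Cyfip2, a regulator of actin assembly (3.81 and 2.58), and Ces1b, a carboxylesterase (1.40 and 0.83), also had no called difference. Their 95% intervals of the difference still lay below 0, at -2.34 to -0.27, -2.20 to -0.25 and -1.01 to -0.12, so effects of like size were not shown. Insl6, a relaxin-family peptide (4.12 and 2.09), Ecel1, an endopeptidase (5.06 and 2.62), and Nup155, a nucleoporin (1.57 and 0.82), had a called difference. Ecel1 lost that call in 13 of the 18 fits that left out 1 array. Insl6 kept it in all 18.
Poli, a DNA polymerase, was the single feature called in INS (0.52) and not in DEL (0.19), with no called difference (adjusted p = 0.20) and an INS call in 6 of the 26 alternatives. Of the features called in both lines, 2 of the 26 features have no symbol in the annotation used. One of them had the largest INS effect of all, 6.63 in both lines, with a difference of 0.00.

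**Figure D3:**
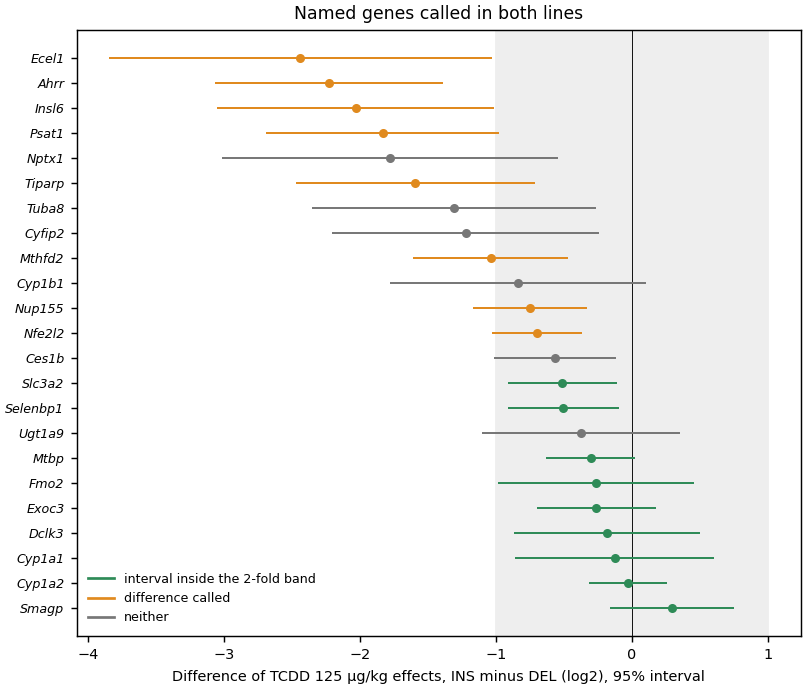
Difference of the TCDD effects, INS minus DEL (log2), with its 95% interval for the 23 named genes called in both lines, and the 2-fold band shaded in grey. The green intervals lie inside the band, the orange genes have a called difference, and the 22 points left of 0 mark a smaller rise in INS, with Smagp as the single point to the right.

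Most measured markers of macrophages and neutrophils rose in DEL. Over all features, 10.7% rose in DEL, 0.128% were called in INS and 5.8% had a called difference. A count of 0 in INS therefore says little about a list, here and in the lists below. Of the 19 measured Kupffer cell and macrophage markers, 18 rose in DEL and 0 in INS, and 10 had a called difference, all below 0 (7 to 17 over the 26 alternatives). The median effect was 1.53 in DEL and 0.24 in INS. Of the 15 neutrophil markers, 9 rose in DEL and 0 in INS, and 9 had a called difference below 0 (4 to 9 over the alternatives). The 6 without a call, among them the granule genes Elane, Mpo, Ltf and Camp, had DEL effects between -0.31 and 0.12. In whole liver, more cells of a type and more RNA per cell cannot be told apart.

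Gpnmb, a glycoprotein of lipid-laden and phagocytic macrophages, had the difference with the lowest value of all. Its DEL arrays went from 5.92, 4.66, 4.78, 4.26 and 5.50 to 9.19, 10.95, 11.16 and 11.28. Its INS arrays read 4.06, 4.11, 5.10, 3.61 and 4.15 with corn oil and 5.77, 6.02, 4.77 and 3.97 with TCDD. The DEL groups were apart, with replicate 1 the lowest treated mouse, and the INS groups overlapped. The difference was -4.69 (95% interval -6.08 to -3.31, adjusted p = 0.00059), from 5.62 in DEL and 0.93 in INS.

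Mmp12, the macrophage elastase, had effects of 4.80 in DEL and 1.75 in INS (difference -3.05, adjusted p = 0.028). The treated INS mice differed among themselves, at 7.66, 6.31, 6.55 and 4.04, against 3.79 to 5.54 with corn oil. The call was lost without DEL TCDD replicate 2 or 4. Trem2, a lipid receptor of macrophages, had a difference of -2.40, and Itgam, an integrin of myeloid cells, one of -1.998. Clec7a, the beta-glucan receptor, had a difference of -2.98, and Pf4, a platelet chemokine, one of -3.36 with effects of 3.03 and -0.34.

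Among neutrophil genes, Mmp8, a collagenase, rose by 3.07 in DEL against 0.18 in INS. S100a8, a calcium-binding alarmin, rose by 2.42 against 0.17, and its INS TCDD arrays at 4.67, 3.76, 3.55 and 3.46 overlapped the corn oil arrays at 3.43 to 4.16. Csf3r, the receptor for granulocyte colony-stimulating factor, rose by 2.42 against 0.28. Lcn2, an iron-sequestering protein also made by hepatocytes, had a difference of -2.97 (adjusted p = 0.047) that was lost in 14 of 18 fits leaving out an array. In replicate 3 of INS corn oil Lcn2 read 10.35, against 7.63 to 8.15 in the other 4.

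The summed linear level of the 19 macrophage markers, on the log2 scale, was 12.5 to 13.1 in DEL corn oil and 13.5 to 14.7 in DEL TCDD, and 12.5 to 12.99 and 12.4 to 13.1 in INS. The neutrophil sum was 9.41 to 10.1 and 11.1 to 13.3 in DEL, and 8.64 to 10.6 and 8.74 to 10.8 in INS. DEL groups were apart and INS groups overlapped for both sums. Most of the neutrophil sum in DEL TCDD was Lcn2, at 10.54 to 13.08 there and 8.18 to 9.44 in DEL corn oil. Hepatocytes make Lcn2 too, so this sum does not stand for neutrophils alone. The DEL groups were also apart, and the INS groups overlapped, for 4 other sums. In DEL the cholangiocyte and progenitor sum and the pancreas sum were higher with TCDD, and the erythroid and adipocyte sums were lower. Single genes can carry such a sum. Car3 read 13.28 to 13.49 in DEL corn oil, where the adipocyte sum was 13.35 to 13.55. Of the adipocyte markers, 1 rose and 2 fell in DEL. The sum of the 13 hepatocyte markers was 16.782 to 16.869 in DEL corn oil and 16.582 to 16.780 in DEL TCDD, also apart, though by little, and 16.756 to 16.823 and 16.674 to 16.791 in INS, where the groups overlapped. The part of these markers in the other differences was not tested.

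Of the 26 cytokines and chemokines, 15 rose in DEL and 0 in INS, and 5 had a called difference, all below 0 (3 to 12 over the alternatives). Ccl7, a monocyte chemoattractant, rose by 3.59 in DEL against 0.50 in INS, and the difference of -3.09 lost its call without DEL TCDD replicate 4. Ccl6 rose by 3.08 against 0.30. Of the 20 stellate cell and matrix markers, 14 rose and 1 fell in DEL, 0 were called in INS, and 6 had a difference below 0 (3 to 12). Lox, which cross-links collagen, Col1a1 and Col1a2, the chains of type I collagen, rose by 2.03, 2.11 and 1.89 in DEL, with effects of 0.01, 0.12 and 0.00 in INS. Timp1, an inhibitor of matrix proteases, had a difference of -2.16 that was lost without DEL TCDD replicate 2 or 4 or INS TCDD replicate 4.

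Of 26 NRF2 targets 11 rose in DEL, 1 rose in INS and 5 had a difference below 0 (4 to 6 over the alternatives). Nfe2l2, which encodes NRF2, rose in both lines, by 1.47 in DEL and 0.78 in INS, with the INS TCDD arrays at 10.55, 10.74, 10.70 and 10.53 above all corn oil arrays at 9.63 to 10.07. The difference of -0.70 (adjusted p = 0.013) was not called after median centring. Slc7a11, the cystine importer, had the DEL TCDD arrays at 6.14, 7.04, 9.47 and 7.45 against 4.08 to 4.46 with corn oil, and effects of 3.31 and 0.34. Cbr3, a carbonyl reductase (3.83 and 0.67), Srxn1, sulfiredoxin (2.16 and 0.61), and Gstm3, a glutathione transferase (1.42 and 0.54), had called differences too. Gclc and Gclm, which make the precursor of glutathione, were not called, with effects of 0.21 and 0.10 in DEL.

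Of the 22 genes of serine synthesis and the integrated stress response, 14 rose in DEL and 3 in INS, and 5 had a difference below 0 (1 to 8 over the alternatives). Psat1, the aminotransferase of serine synthesis, went in INS from 4.62, 4.48, 5.69, 4.71 and 4.85 to 6.66, 6.86, 7.65 and 7.46, and in DEL from 6.29, 5.67, 5.56, 5.93 and 5.76 to 9.69, 9.73, 10.90 and 9.53. Both lines' groups were apart, and replicate 3 of DEL TCDD was the highest array. Its rises of 4.12 in DEL and 2.29 in INS differed by -1.83 (adjusted p = 0.013). Mthfd2, of mitochondrial folate metabolism, rose by 2.13 and 1.09, and its difference was lost in 5 of 18 fits leaving out an array. Fgf21, a hormone that liver secretes under metabolic stress, rose by 3.11 in DEL against 0.96 in INS (adjusted p = 0.0014 for the difference). None of the 17 genes of the unfolded protein response was called in the difference, and 2 fell in DEL.

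Most cell cycle genes rose in DEL. Of the 26 measured, 23 rose in DEL, beside 10.7% of all features, and 0 passed the test in INS, beside 0.128%. All 23 had an INS effect above 0. The median effect over the 26 was 1.49 in DEL and 0.73 in INS. A difference was called in 3 (11.5%), all below 0 (1 to 10 over the alternatives), beside 5.8% of all features. Mki67, the proliferation marker, had effects of 2.36 and 1.08 with a difference of -1.28 (adjusted p = 0.066). Cdc20, an activator of the anaphase-promoting complex, had 0.92 and 0.81. Bub1, a spindle checkpoint kinase, separated the lines, with 1.83 and 0.14 (adjusted p = 0.013). Of 17 p53 and growth arrest genes, 10 rose in DEL and 3 had a difference below 0. Gadd45b, a stress sensor, rose by 2.94 against 0.73. Cdkn1a, the cell cycle inhibitor p21, had 3.76 and 1.77, and its difference (adjusted p = 0.049) was lost in 13 of 18 fits leaving out an array.

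**Figure D4:**
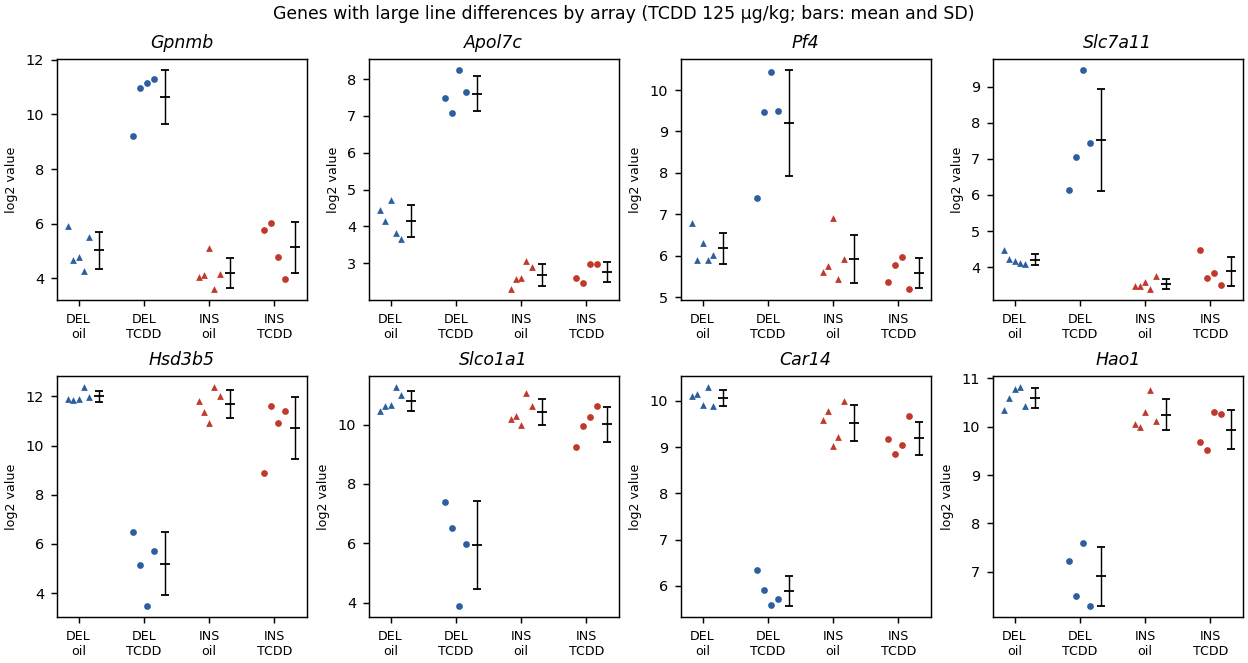
Log2 values of 8 genes with large differences between the lines on each array, triangles for corn oil and circles for TCDD at 125 µg/kg, DEL in blue and INS in red, with the mean and SD of each group as black bars and a separate y axis per gene. In the top row the DEL TCDD arrays lie above the DEL corn oil arrays and in the bottom row below them, while the step from corn oil to TCDD in INS is smaller, as for Car14 with effects of -4.17 in DEL and -0.33 in INS.

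Most male-biased liver genes fell in DEL. Over all features, 9% fell in DEL, 0.00947% fell in INS and 5.8% had a called difference. Of the 20 male-biased liver genes, which pulsatile growth hormone keeps high in males, 17 fell in DEL and 0 in INS, and 12 had a called difference, all above 0 (2 to 14 over the 26 alternatives). The median effect was -1.55 in DEL and -0.14 in INS. None of the 16 female-biased genes was called in the difference, while 5 rose and 2 fell in DEL and 1 rose in INS. Of the 15 genes of the growth hormone and IGF1 axis, 4 had a difference above 0, among them Ghr, the growth hormone receptor, with -1.01 in DEL and -0.18 in INS (adjusted p = 0.0036).

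Hsd3b5, a male-specific steroid dehydrogenase, had the largest difference of all features. The DEL arrays went from 11.90, 11.85, 11.90, 12.37 and 11.97 to 6.47, 5.15, 3.47 and 5.71. The INS arrays read 11.81, 11.37, 10.91, 12.38 and 12.03 with corn oil and 8.87, 11.60, 10.93 and 11.43 with TCDD. All treated DEL mice were far below the corn oil mice, and in INS only replicate 1 was. The effects were -6.80 and -0.99, and the difference was 5.80 (95% interval 4.23 to 7.38, adjusted p = 0.00026).

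Slco1a1, an organic anion and bile acid transporter, fell by 4.86 in DEL, from 10.47, 10.61, 10.66, 11.27 and 10.99 to 7.40, 6.50, 3.88 and 5.98. In INS the arrays read 10.19, 10.28, 9.99, 11.08 and 10.62 with corn oil and 9.24, 9.94, 10.26 and 10.63 with TCDD, and the groups overlapped. The difference was 4.45 (adjusted p = 0.00097). Elovl3, a fatty acid elongase with male bias, had effects of -4.04 and -1.06, and its difference of 2.97 lost its call without INS TCDD replicate 4.

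Most genes of bile acid synthesis and transport fell in DEL, beside 9% of all features. Of 28 members, 18 fell in DEL and 0 in INS, and 13 had a called difference, all above 0 (4 to 15 over the alternatives). That is 46.4% of the list, beside 5.8% of all features. Cyp8b1, which sets the share of cholic acid, had the DEL TCDD arrays at 9.38, 10.56, 9.50 and 10.50 against 11.87 to 12.26 with corn oil. Its effects were -2.07 and 0.03 (difference 2.10, adjusted p = 0.0079), and replicate 3 of INS corn oil was low at 10.06. Cyp7b1, of the alternative pathway, Slco2b1, an uptake transporter, Baat, which conjugates bile acids, and Abcb11, the bile salt export pump, had differences of 1.81, 2.12, 1.16 and 0.99. Cyp7a1, the rate-limiting enzyme, had effects of -2.67 and -0.26, and its difference of 2.41 did not pass the test (adjusted p = 0.19).

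Of 30 urea cycle and amino acid genes, 24 fell in DEL and 0 in INS, and 13 had a difference above 0 (1 to 20 over the alternatives). Afmid, of tryptophan breakdown, fell by 3.76 in DEL against an effect of -0.54 in INS. Otc, a urea cycle enzyme, had -2.18 and -0.27, and Hal, which degrades histidine, -1.41 and 0.01. Of 24 fatty acid and triglyceride synthesis genes, 17 fell and 1 rose in DEL, and 10 had a difference above 0 (5 to 15). Srebf1, the regulator of lipogenesis, had -2.05 and 0.08 (adjusted p = 0.0068). Fasn, fatty acid synthase, had -1.62 and 0.45, and its difference (adjusted p = 0.036) was lost in 12 of 18 fits leaving out an array. Of 19 cholesterol synthesis genes, 5 had a difference above 0 (1 to 8), among them Sc5d with -1.17 and 0.04. Of 18 glucose genes, 7 fell and 4 rose in DEL, 0 were called in INS and 5 had a difference above 0 (4 to 7), with differences from -1.66 to 2.64 over the list. Igfbp1, a secreted IGF-binding protein, was the member at -1.66, with effects of 2.38 and 0.72 and no called difference (adjusted p = 0.28). Slc2a2, the hepatocyte glucose transporter, had -2.11 and 0.52, and Pklr, liver pyruvate kinase, -2.05 and 0.50, with neither INS effect called.

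Of 28 coagulation and complement genes, 16 fell in DEL and 7 had a difference above 0 (0 to 9 over the alternatives), among them C6, a complement component (-1.32 and -0.03), and F7, a clotting factor (-1.35 and 0.09), whose call was lost in 4 of 18 fits leaving out an array. Among other large differences above 0, Hao1, which oxidises glycolate, had the DEL TCDD arrays at 7.23, 6.50, 7.59 and 6.30 against 10.35 to 10.82 with corn oil. Its effects were -3.69 and -0.31. Car14, a membrane carbonic anhydrase, had -4.17 and -0.33 and the lowest adjusted p of the named genes, 1.4e-06. Car1, another carbonic anhydrase that red cells carry, had -4.49 and -0.59, Adgrf1, an adhesion receptor, -4.65 and -0.61, and Sucnr1, the succinate receptor, -3.53 and -0.15. Cyp4f14, a fatty acid hydroxylase, had -3.40 and -0.22, Inmt, an amine methyltransferase, -3.54 and -0.32, Ces3b, a carboxylesterase, -3.04 and -0.07, and the pseudogene Serpina4-ps1 -4.33 and -0.48. The differences of Sult2a8, a bile acid sulfotransferase (3.05), and of Thrsp, a lipogenic protein (2.90), lost their calls in 9 and 15 of 18 fits leaving out an array. Car1, Serpina4-ps1 and Thrsp are also counted in the erythroid, male-biased and fatty acid synthesis lists.

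Among the large differences below 0, Apol7c, an apolipoprotein L, rose by 3.46 in DEL against 0.07 in INS. Ugt1a7c, a glucuronosyltransferase, rose by 4.81 in DEL. In INS its change of 1.82 did not pass the test, with TCDD arrays at 7.09, 8.90, 7.09 and 7.19 above all corn oil arrays at 5.01 to 6.32, and the difference was -2.99 (adjusted p = 0.021). Gpx2, a glutathione peroxidase of epithelia, had 2.58 and -0.68. Mmp13, a collagenase, had 3.46 and 0.82, and its difference was lost without DEL TCDD replicate 4. Ly6d, a surface protein of the Ly6 family, read 7.80, 10.31, 12.75 and 11.10 in DEL TCDD against 7.06 to 7.53 with corn oil, and its difference of -3.27 was lost in 10 of 18 fits leaving out an array.

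**Figure D5:**
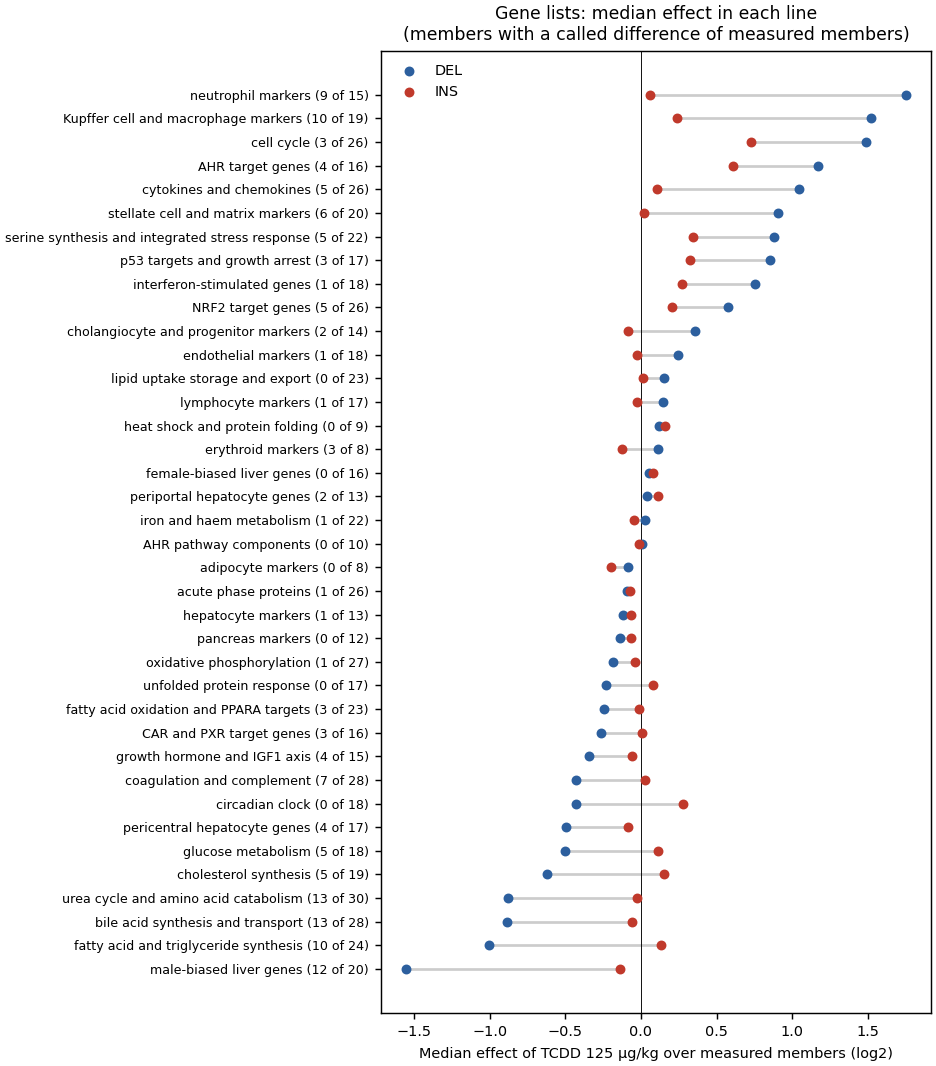
Median effect of TCDD at 125 µg/kg over the measured members of each gene list (x axis, log2), DEL in blue and INS in red, with the members that had a called difference and the measured members in parentheses. The INS medians stay between -0.20 and 0.73 while the DEL medians run from -1.55 to 1.75, and the cell cycle and AHR target lists have the highest INS medians.

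Several lists had few or 0 called differences beside a share of 5.8% over all features. Lipid uptake and storage (0 of 23), circadian clock (0 of 18), heat shock (0 of 9), pancreas markers (0 of 12) and adipocyte markers (0 of 8) had none, at these settings. Oxidative phosphorylation had 1 of 27, acute phase proteins 1 of 26, iron and haem metabolism 1 of 22, endothelial markers 1 of 18, interferon-stimulated genes 1 of 18 and lymphocyte markers 1 of 17. Over the 26 alternatives the counts ranged up to 6 for interferon-stimulated genes and 4 for oxidative phosphorylation and for lipid uptake and storage. They reached 3 for endothelial and adipocyte markers, 2 for acute phase proteins and iron and haem metabolism, and 1 for heat shock, pancreas and lymphocyte markers. The circadian clock stayed at 0. For the interferon list 10 members rose in DEL and 0 in INS. Wide intervals limit what these counts show: Dbp, a clock output gene, had a difference of 1.60 with a 95% interval of -0.71 to 3.92. In adipocyte markers Cidec, a lipid droplet protein, had -2.36 (95% interval -4.23 to -0.49, adjusted p = 0.15) and Car3, a carbonic anhydrase of fat and liver, 3.02 (adjusted p = 0.086). The remaining lists lay between, with 2 of 23 above 0 and 1 below for fatty acid oxidation and PPARA targets, 3 of 16 above 0 for CAR and PXR targets, 3 of 17 above and 1 below for pericentral genes, 2 of 13 above for periportal genes, 3 of 8 above for erythroid markers, 2 of 14 below for cholangiocyte and progenitor markers and 1 of 13 above for hepatocyte markers.

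The separation seen at 125 µg/kg was not shown to change up to 1000 µg/kg. Among treated mice only (4 DEL and 4 INS at 125 µg/kg, 4 DEL and 5 INS at 1000 µg/kg), the change in the INS minus DEL level from the lower to the higher dose was called in 0 of 21115 features by limma, with 2348 at an unadjusted p under 0.05. Without replicate 3 of DEL TCDD at 125 µg/kg, 15 were called, all below 0. Both doses share their corn oil arrays, so effects are only set side by side. Hsd3b5 had -6.80 in DEL and -0.99 in INS at the lower dose and -7.06 and -0.64 at the higher. Gpnmb had 5.62 and 0.93, then 6.58 and 1.07. For Ahrr the effects were 4.58 and 2.35, then 4.19 and 3.47.

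Ahrr in INS had a higher mean at each higher dose, with groups whose spreads overlapped between neighbouring doses. The INS level of Ahrr was 6.39 ± 0.89 (SD, n = 4), 6.76 ± 1.02 (n = 4), 7.08 ± 0.63 (n = 4) and 7.51 ± 0.62 (n = 5) at 125, 250, 500 and 1000 µg/kg, and the DEL level was 8.80 ± 0.32, 8.39 ± 0.17, 8.48 ± 0.52 and 8.40 ± 0.36 (n = 4 each), where the means had no such order. The change in the line difference of Ahrr from 125 to 1000 µg/kg was 1.51 ± 0.52 (SE, adjusted p = 0.38). For Cyp1b1 it was 1.01 ± 0.45 (adjusted p = 0.42), for Tiparp 1.05 ± 0.46 (adjusted p = 0.42) and for Nptx1 1.83 ± 0.75 (adjusted p = 0.41). For Gpnmb it was -0.81 ± 0.87 (adjusted p = 0.73).

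Measured by animal, no treated INS mouse reached the treated DEL mice. The 4 INS TCDD arrays moved 28.9%, 22.9%, 19.1% and 6.65% of the way along the DEL response over all features. The 4 DEL TCDD arrays, each set against the effect of the other 3, lay at 51.4%, 97.5%, 122% and 103%, and the DEL corn oil arrays at 2.63% to 7.05%. The highest INS TCDD array was below the lowest DEL TCDD array, and the lowest of them was below the highest INS corn oil array, replicate 3.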

How the data were processed

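Each array is an Affymetrix expression array with the liver RNA of 1 mouse. The deposited values are log2 expression values with 1 feature per Entrez gene, which the authors made with RMA (affy 1.44.0, R 3.1.2), per the submitters' processing notes. No source used here gives the probe-set definition, the build or whether the lines were normalized together. All 21115 features of the 18 arrays were used as deposited, with no filter; 20405 had 1 gene symbol and 710 had none.

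One linear model with a mean per group was fitted in limma 3.58.1 (R 4.3.3), and moderated two-sided tests were adjusted by Benjamini-Hochberg over all features within a contrast. A feature was called at an adjusted p under 0.05. Features called in the same direction in both lines were alike if the 95% interval of the difference lay within 2-fold. The model was tested on simulated data. The members, gene lists and tests were chosen with earlier results of these data known. Genes named are the classical AHR targets, the 15 largest called differences in each direction, the alike genes, and up to 4 members per list by size of a called difference (2 where none was called). Other genes called in INS, and list members given to describe a list, were chosen after their values were seen. The alternatives were other scalings, filters, variance models, array weights, a replicate block and leaving out each array.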

Additional observations from a re-analysis of the deposited data

Results flagged for a closer look

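The effect of TCDD at 125 µg/kg differed between the lines, by the test of the difference itself, in 593 features above 0 and 631 below 0, the named genes with a called difference among them. No explanation of these differences was tested.

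Of 548 groups of 4 or 5 values examined, over the named genes and the response share, 42 (7.66%) held 1 array far from the others by Dixon's criterion, which chance alone meets in about 1 in 20 groups. All values are log2 levels unless stated, with the range of the other arrays of the group.

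Replicate 1 of DEL TCDD was low for the inflammatory genes Gpnmb at 9.19 (10.95 to 11.28), Mmp8 at 4.997 (7.05 to 7.41), Timp1 at 6.48 (8.45 to 8.74), Csf3r at 7.04 (8.47 to 8.50) and Il1r2 at 5.19 (6.51 to 6.56). It was also low for Insl6 at 8.21 (8.56 to 8.59) and high for Ahr at 9.91 (9.52 to 9.57) and for Hspd1, a mitochondrial chaperone, at 11.39 (10.76 to 10.77).

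Replicate 3 of INS corn oil moved 14.03% of the way along the DEL response (-4.96% to -1.70%). It was high for Lcn2 at 10.35 (7.63 to 8.15), Ccl7 at 6.70 (4.61 to 5.02), Ly6d at 7.27 (5.97 to 6.32) and Gadd45b at 5.58 (4.69 to 4.94), and low for Cyp8b1 at 10.06 (11.39 to 11.83) and Cyp4a12a at 10.37 (11.27 to 11.62).

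Replicate 3 of DEL TCDD was high for Psat1 at 10.90 (9.53 to 9.73) and Blvrb at 12.76 (12.33 to 12.39) and low for Cyp7b1 at 8.79 (10.12 to 10.38) and C6 at 9.32 (9.97 to 9.98). Replicate 2 was high for Ptges3 at 8.83 (8.32 to 8.36).

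In INS TCDD, replicate 2 was high for Ugt1a7c at 8.90 (7.09 to 7.19) and Pklr at 11.85 (11.57 to 11.62), and low for Gpx2 at 2.82 (3.44 to 3.52), Slco1a4 at 8.48 (9.31 to 9.45) and Stard4 at 9.06 (9.38 to 9.40). Replicate 4 was low for Ccne2 at 4.42 (4.87 to 4.90), Khk at 10.34 (10.66 to 10.69) and Ly6d at 5.41 (6.52 to 6.72). Itgam was high in replicate 1 at 4.96 (4.26 to 4.35), and Col1a1 was low in replicate 3 at 5.47 (5.81 to 5.85).

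In INS corn oil, Cidec was high in replicate 2 at 9.09 (5.43 to 6.06). Replicate 1 was low for Dbp at 6.14 (9.19 to 10.33), as replicate 1 of DEL corn oil was at 6.997 (9.23 to 10.99). It was also low for Bub1b at 3.89 (4.28 to 4.37) and high for Nup155 at 7.30 (6.71 to 6.86). Replicate 4 was low for Cyp4f14 at 10.40 (10.78 to 10.91) and Lox at 3.06 (3.37 to 3.46).

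In DEL corn oil, replicate 5 was high for Col1a2 at 6.49 (5.61 to 5.84) and low for Pmm1 at 5.78 (6.06 to 6.15) and Smagp at 9.61 (10.14 to 10.34). Replicate 4 was high for Exoc3 at 8.61 (8.38 to 8.43) and Hsd3b5 at 12.37 (11.85 to 11.97), and replicate 1 was low for Igfbp3 at 7.95 (8.47 to 8.64).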

How the results depend on the processing

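The count of 1224 called differences was 642 with all 60 arrays in 1 fit, 1905 with array weights and 732 if a difference of at least 1 was also required. Leaving out single arrays gave 656 to 2119. The INS count of 27 was 17 with all 60 arrays and 19 to 37 with arrays left out, and the DEL count of 4164 was 7459 after median centring. The 10 alike features became 4 after quantile normalization, 4 after mapping line profiles onto their mean, 3 with all 60 arrays, 2 with a 1.5-fold bound and 5 to 13 with arrays left out. With a replicate block the counts were 1310 for the difference, 31 for INS, 4175 for DEL and 13 alike. Among named genes the block removed the calls of Thrsp, Lcn2, Slco1a4 and Stard4. Pairing by number was not shown for all groups: the correlation of same-numbered arrays' deviations had a median of 0.091 over 25 pairs (-0.36 to 0.36; 11 over 0.1), against -0.013 for 96 pairs of different numbers (17 over 0.1). The corn oil arrays of the lines did tend to deviate together by number, with a median of 0.17 (0.067 to 0.36), 4 of 5 pairs over 0.1 and 4 of 5 DEL arrays closest to their own number, as Dbp and Cdkn1a show. The treated arrays did not, with a median of -0.058 and 0 of 4 pairs over 0.1. This is a hint from the data, since the labels do not say what a number stands for. The dose contrast gave 0 to 15.

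The difference of Cyp1a1, -0.13, turned to 0.0456 after median centring, 0.0245 without DEL corn oil replicate 3 and 0.0404 without INS TCDD replicate 1, within a range of -0.28 to 0.0404 over single arrays left out. That of Cyp1a2, -0.03, turned to 0.142 after median centring and ranged from -0.088 to 0.0156 over single arrays left out, above 0 without DEL corn oil replicate 3, INS corn oil replicate 4 or 5 or INS TCDD replicate 4. The cause of these changes was not tested. Of the 102 named genes with a called difference, 55 kept the call with all 60 arrays, 95 after median centring, 101 after quantile normalization, 98 with the replicate block and 72 to 102 with an array left out, and none changed sign in these.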

Other observations

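Genes of the pancreas list gave 1 signal that the comparison leaves unsettled. Ctrb1, the digestive enzyme chymotrypsinogen, had effects of 4.87 in DEL and 2.36 in INS, and its difference of -2.52 did not pass the test (95% interval -4.29 to -0.74, adjusted p = 0.095). The summed level of the 12 pancreas markers was 8.06 to 8.31 in DEL corn oil and 8.83 to 10.8 in DEL TCDD, and 7.53 to 7.87 and 7.496 to 8.80 in INS. That sum includes Ctrb1, at 7.62, 9.05, 10.56 and 9.49 in DEL TCDD, so it is no separate sign of a rise. Of the 12 markers, 1 rose and 1 fell in DEL, with a median DEL effect of -0.14. Gcg, the hormone glucagon, had effects of -0.39 and 0.00.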
